A study of Homo sapiens with 3 samples.

Results

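The clustered protocadherins are 53 protein-coding genes of chromosome 5, chosen by their symbols in GENCODE release 44 from the 58051 genes of the deposited counts, of which 19629 are protein-coding. Their names begin with PCDHA or PCDHAC (the alpha cluster, 15 genes), with PCDHB (the beta cluster, 16 genes) or with PCDHGA, PCDHGB or PCDHGC (the gamma cluster, 22 genes). The rule uses names and position only. The cells were of H9, an established line of human embryonic stem cells (hESCs), and no treatment is given for them. Total RNA was sequenced from 3 replicates, each of which gave 1 library from 750 ng of RNA after depletion of ribosomal RNA and 8 cycles of PCR. The labels do not say whether the replicates were separate cultures, so the spread between them may be technical. There was 1 condition, and no groups could be compared. In the study these levels served to sort genes by expression before the density of breaks at their start and splice sites was examined, and the clustered protocadherins had no place of their own in that design.

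Clustered protocadherins are cell-surface proteins of the cadherin superfamily that are best known from neurons. Each neuron switches on its own set of them by choosing among alternative promoters, and neurites that carry the same set recognize and avoid each other. In the alpha and gamma clusters every variable exon has a promoter of its own and encodes the whole extracellular part of a protein, and it is spliced to small constant exons shared by the entire cluster, which encode the cytoplasmic end. Beta genes have no constant exons and encode their protein in a single exon. The members called C-type (PCDHAC1, PCDHAC2, PCDHGC3, PCDHGC4 and PCDHGC5) lie at the ends of their clusters, and in neurons many of them are used constitutively rather than by choice. The insulator protein CTCF and the ring-shaped complex cohesin bind the promoters and distal enhancers. DNA methylation and repressors such as SMCHD1 and SETDB1 keep promoters silent.

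The promoters of members are shown first, as many of them carry the sequence element through which promoter choice is made. Of the 53 members, 47 had an entry in the RefSeq promoter table (GRCh38.p14, from 250 bases before to 50 bases after the start). The letters CGCT, the core of the conserved protocadherin element, were searched on both strands and were found in 46 of 47, or 97.9%, against 69.9% of all 34943 promoters in the table. On the strand of the gene and before its start, CGCT stood in 45 of 47, against 48.0% of all promoters. In 44 members a CGCT with all its flanks lay before the start, at a median of 60.5 bases from it, and in 43 of them this distance was between 38 and 95 bases. The windows below show members that the results turn on, where the table gave one. That of PCDHA11 is not printed, as it lies within the first exon of this gene in GENCODE. They are on the plus strand of hg38, 5′ to 3′. The capitals mark CGCT, which is common over all promoters and need not be the conserved element in each window.
PCDHA1, chr5:140786086-140786119: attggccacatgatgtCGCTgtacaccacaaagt
PCDHA6, chr5:140827897-140827930: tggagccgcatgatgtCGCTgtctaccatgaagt
PCDHA12, chr5:140875244-140875277: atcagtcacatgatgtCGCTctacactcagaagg
PCDHAC1, chr5:140926220-140926253: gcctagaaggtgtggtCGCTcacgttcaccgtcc
PCDHAC2, chr5:140966365-140966398: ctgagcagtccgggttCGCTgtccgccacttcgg
PCDHB1, chr5:141051274-141051307: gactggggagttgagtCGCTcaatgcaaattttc
PCDHB2, chr5:141094544-141094577: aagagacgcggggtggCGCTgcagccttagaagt
PCDHB15, chr5:141245314-141245347: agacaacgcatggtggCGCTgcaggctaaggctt
PCDHGA1, chr5:141330403-141330436: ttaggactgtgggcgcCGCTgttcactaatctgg
PCDHGA3, chr5:141343767-141343800: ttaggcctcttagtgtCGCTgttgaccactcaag
PCDHGA10, chr5:141412931-141412964: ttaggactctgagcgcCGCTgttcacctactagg
PCDHGB7, chr5:141417607-141417640: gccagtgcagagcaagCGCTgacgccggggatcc
PCDHGC3, chr5:141475880-141475913: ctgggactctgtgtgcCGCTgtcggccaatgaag
PCDHGC4, chr5:141484952-141484985: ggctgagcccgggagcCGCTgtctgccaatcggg

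Around CGCT, each cluster had its own letters. The 8-base word shared by most alpha promoters was ATGTCGCT, in 9 of 13, and it was in 0.155% of all promoters in the table. For beta it was GGTGGCGC, in 13 of 14 against 1.24% of all promoters, and for gamma GCCGCTGT, in 11 of 20 against 0.890%. The words of alpha and gamma hold CGCT, and that of beta ends on its first 3 letters, so these words and CGCT are not separate finds. None of the 3 words was found in a promoter of another cluster. At the 30 flanking positions, windows were set against the most frequent letters among those promoters of the cluster that hold its 8-base word. The window that matched best was kept. Promoters with the word thus match in part by construction, and PCDHAC1, PCDHAC2, PCDHB1 and PCDHGB7 do not hold it. The windows of the 10 alpha members that are not C-type carried these letters at 17 to 27 positions. Those of PCDHAC1 and PCDHAC2 carried them at 9 and 14. The window of PCDHGB7 matched at 6 positions and that of PCDHB1 at 10, while the highest of their clusters matched at 26 and 27. The PCDHGB7 window opens with the letters that close the PCDHGB6 window, so its CGCT lies at another place. Its match therefore does not compare like positions. PCDHGC3 matched at 22 positions and PCDHGC4 at 17. A 12-letter form of the CTCF core motif, searched on both strands, was in 1 of 47 promoters, against 10.6% of all promoters. TATAA (both strands, able to share a T with CGCT) was in 17 of 47, or 36.2%, against 20.5%. The median GC content was 39.7% in the promoters of members and 58.7% in all promoters. The shares of promoters with given letters were not corrected for base composition, so they do not show depletion or enrichment beyond it. These are matches of letters, and binding was not measured here.

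The promoters of C-type members were richer in G and C than the others. Their GC content was 59% to 66% in the 4 that had an entry, and 32.3% to 51.3% in the other 43, so that the ranges did not overlap. The median over all promoters in the table was 58.7%. The ratio of observed to expected CpG dinucleotides, the bases that DNMT enzymes methylate, had a median of 0.593 over the 47 members and of 0.577 over all promoters. Across the 47 members the level of expression, defined below, had a Spearman's rho of 0.33 with this ratio and of 0.40 with promoter GC content. Without the C-type members these were 0.32 and 0.28. Within clusters, rho with the CpG ratio was 0.11 in alpha (13 members), 0.19 in beta (14) and 0.63 in gamma (20), and rho with GC content was 0.55, -0.06 and 0.59, so that beta showed no such order by GC content. The points share 1 locus and the same libraries, and the correlations are given as a description.

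Reads on the constant exons cannot be given to 1 gene. The first constant exon is 59 bases long in both clusters, and all 15 alpha genes or all 22 gamma genes include it. Both exons are given here in full, from hg38 on the plus strand, because reads there are common to the whole cluster.
alpha first constant exon, chr5:140978949-140979007: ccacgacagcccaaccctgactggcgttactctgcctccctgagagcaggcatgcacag
gamma first constant exon, chr5:141494807-141494865: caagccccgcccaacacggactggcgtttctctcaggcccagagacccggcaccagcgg
The same base stood at the same place at 39 of the 59 positions. In the second constant exon, of 89 bases in both clusters, it did so at 29 positions. Had reads there been counted on every gene that holds them, no member could have had fewer reads than this shared part. The lowest counts of an alpha member were 3, 3 and 1 in replicates 1, 2 and 3 and those of a gamma member 3, 6 and 5, while the clusters held 767 to 1257 counts. Reads on the constant exons were thus not added to every member, and what else was done with them is not given in the sources used here. The counts were therefore divided by the length of a gene's own exons, the exon bases that no other gene has on the same strand, and scaled to TPM by the total of counts over the union of exons in each replicate. This value is called the level below. It measures variable exons, and the total output of the constant exons was not measured.

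The 53 members held 2995, 3463 and 2587 counts in replicates 1, 2 and 3, or 288, 288 and 299 CPM, the count scaled to the library total. More than 3 counts, the number that a count of 0 allows, were found in every replicate for 47 members, 13 alpha, 13 beta and 21 gamma. Of all protein-coding genes, 71.9% passed the same limit. The other 6 were PCDHA6, PCDHA7, PCDHB6, PCDHB7, PCDHB8 and PCDHGA3, and each of them had at least 1 count in every replicate. Most variable exons were thus detected, and most of them at low levels. The median level of a member was 2.01 TPM, against 8.00 TPM over protein-coding genes, and 15 members were above the latter. These 15 held 77.5% of all counts on members. They were set by own-exon length, and with another length the set may differ. By the classes of the study (nonexpressed under 0.01 TPM, and the rest in 3 quantiles), computed here from these levels over protein-coding genes, 34 members were low, 18 medium, 1 high and 0 nonexpressed. Of the protein-coding genes 29.3% were in each of low, medium and high and 12.2% were nonexpressed. The boundaries lay at 3.70 and 27.7 TPM.

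**Figure D1:**
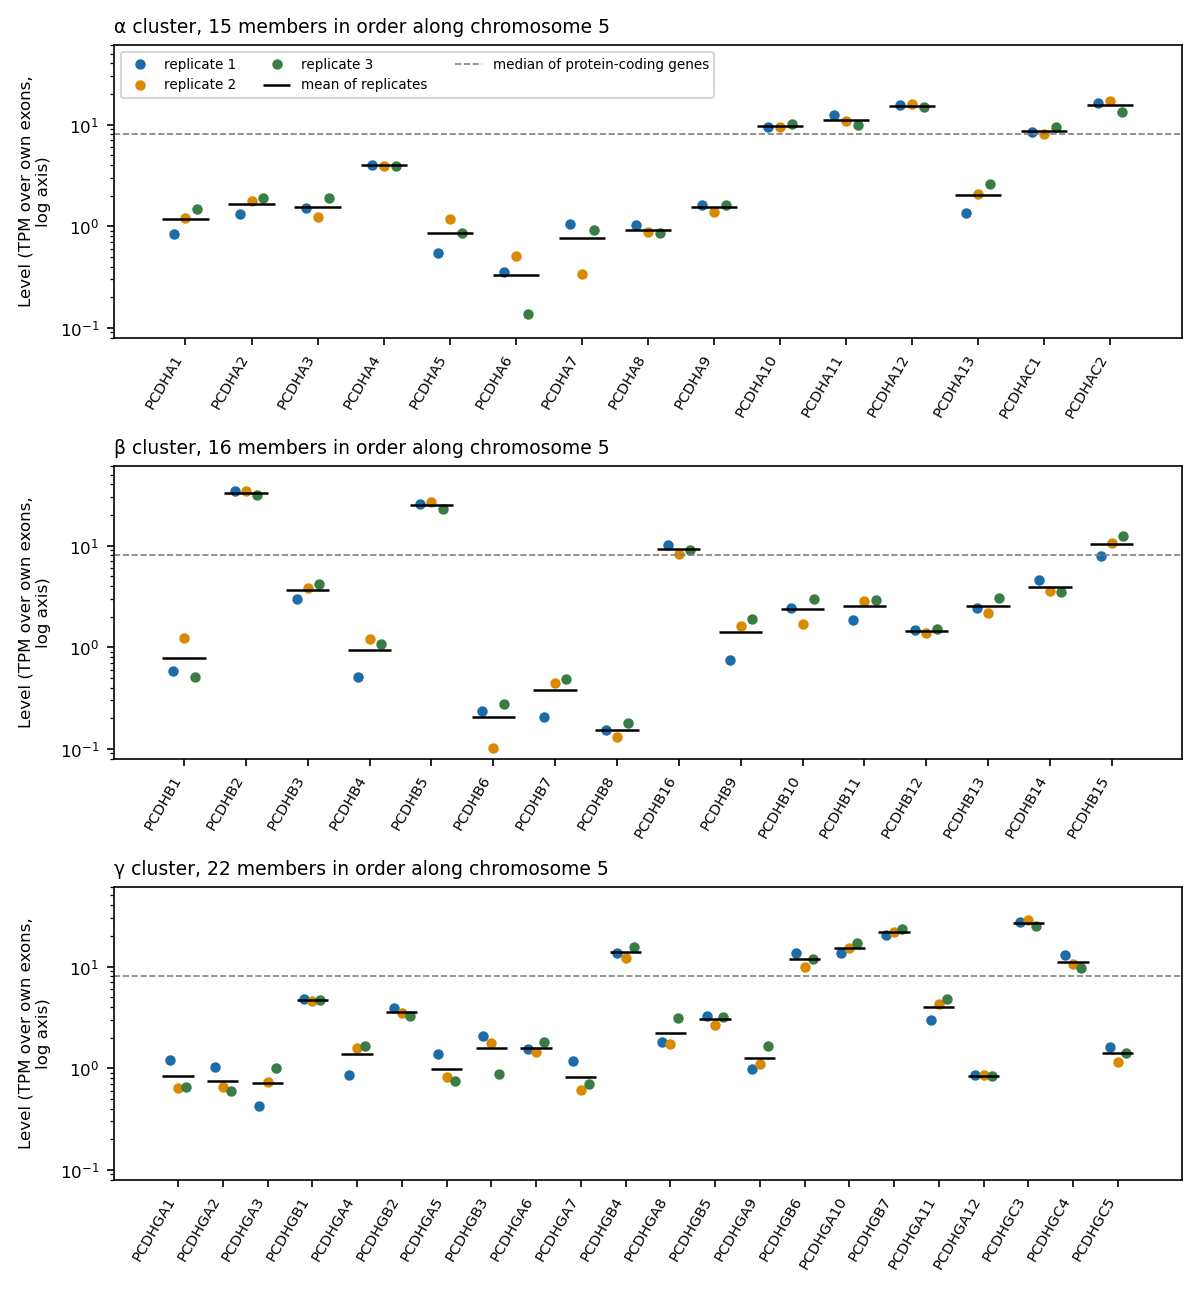
Level of each clustered protocadherin (TPM over own exons, log axis) in the order of the genes along chromosome 5, one panel for each cluster. Points are the 3 replicates, black bars their means, and the dashed line the median of protein-coding genes at 8.00 TPM. A few members of each cluster stand above the line, and the means of the other members lie below 5 TPM.

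Summed over members, the gamma cluster was highest, with levels of 131, 126 and 134 TPM in replicates 1, 2 and 3 (130 ± 3.93 TPM, SD, n = 3). The beta cluster followed with 96.5, 100.01 and 98.3 TPM (98.3 ± 1.74) and the alpha cluster with 75.8, 75.9 and 74.0 TPM (75.2 ± 1.08). The replicates of the clusters did not overlap. Per member the order was another, at 6.14 TPM for beta, 5.93 TPM for gamma and 5.01 TPM for alpha. The order depends on the length used. With the length of all exons, shared ones included, the sums were 41.8 TPM for alpha, 96.6 TPM for beta and 74.9 TPM for gamma. Counts were spread unevenly over each cluster. The number of members that would give the same unevenness if all had equal counts (the inverse of the sum of squared shares) was 6.27 ± 0.0481 for alpha, 4.83 ± 0.430 for beta and 8.41 ± 0.333 for gamma (SD, n = 3).

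**Figure D2:**
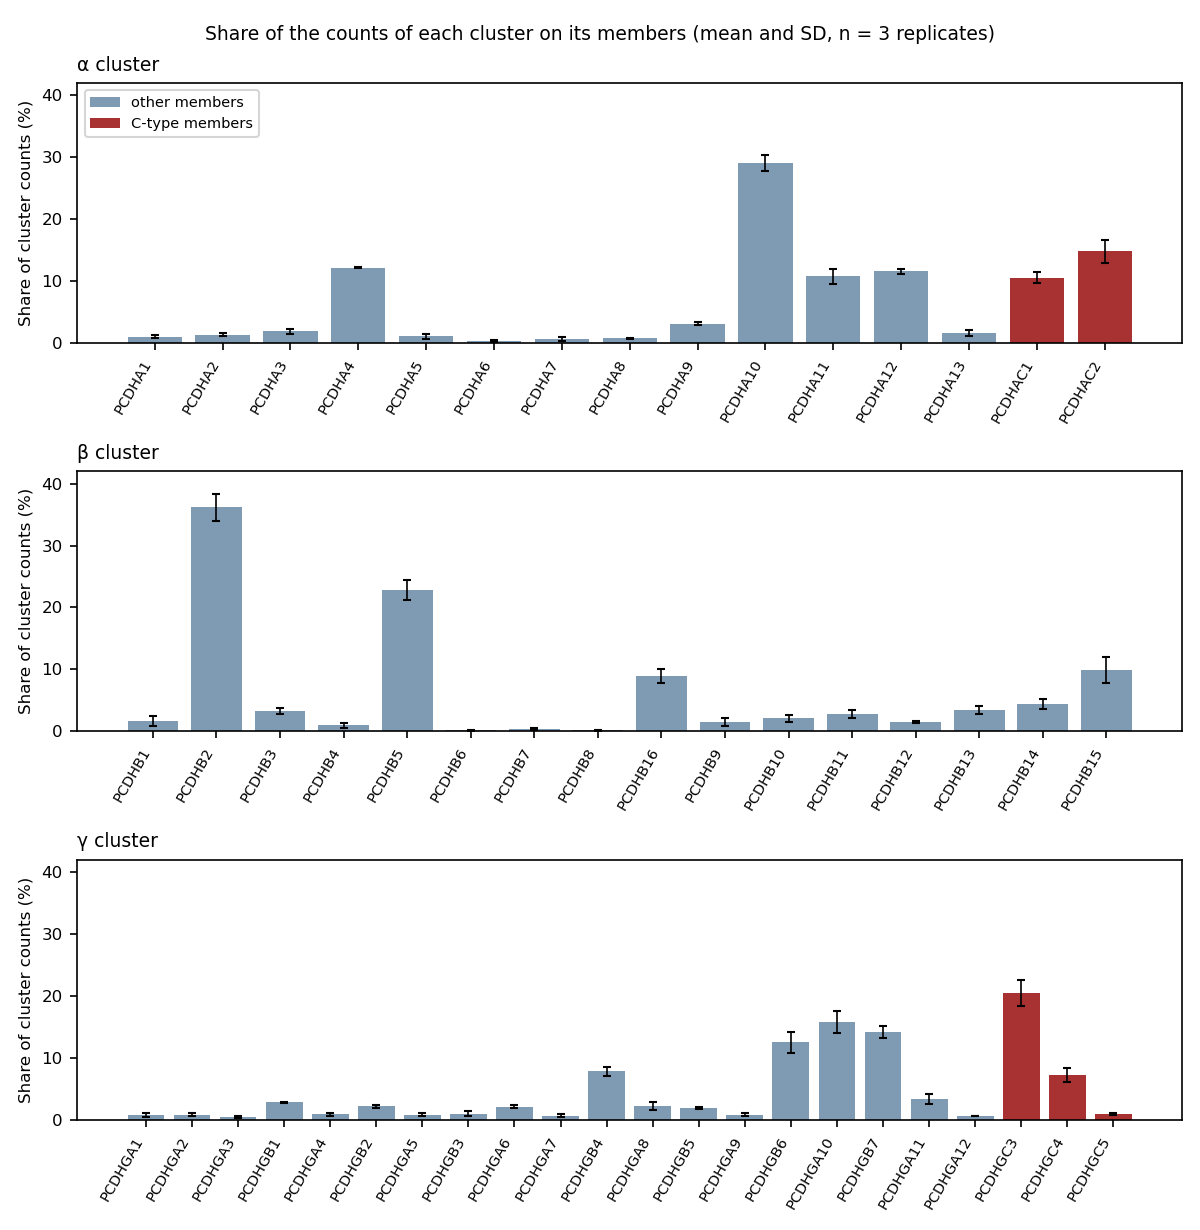
Share of the counts of each cluster (%) on each member, in the order of the genes. Bars are means and error bars SDs over the 3 replicates, with C-type members in red. PCDHA10, PCDHB2 and PCDHGC3 hold the highest shares, at 29.1%, 36.2% and 20.5%.

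In the alpha cluster, 5 of 15 members were above the median of protein-coding genes, namely PCDHA10, PCDHA11 and PCDHA12, which follow each other on the chromosome, and both C-type members. PCDHA12 (ENSG00000251664, chr5:140875302-141012347) had 104, 125 and 85 counts in replicates 1, 2 and 3 and levels of 15.4, 15.96 and 14.8 TPM (15.4 ± 0.582 TPM, SD, n = 3). PCDHA11 (ENSG00000249158, chr5:140868183-141012347) had 109, 110 and 74 counts and levels of 12.5, 10.8 and 9.92 TPM (11.1 ± 1.29). The ranges of PCDHA11 and PCDHA12 did not overlap, and PCDHA12 was 1.24 to 1.49 times as high. This gap depends on the length, as own exons are 3360 bases long in PCDHA11 and 2588 in PCDHA12. In replicate 1 PCDHA11 had the more counts. The means were 5.175 TPM for PCDHA11 and 5.515 TPM for PCDHA12 with the longest transcript, and 15.3 and 16.77 TPM with own coding length. PCDHA13, the next variable exon after PCDHA12, had 9, 16 and 15 counts, a level lower by 5.63 to 11.5 times. PCDHA1, the first of the cluster, had 6, 10 and 9 counts (1.18 ± 0.322 TPM). The lowest was PCDHA6, with 3, 5 and 1 counts (0.332 ± 0.185 TPM), and its range did not overlap that of PCDHA1. The 9 alpha members other than PCDHA4, PCDHA10, PCDHA11, PCDHA12 and the C-type lay between 0.332 and 2.01 TPM.

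PCDHA10 had the most counts of the cluster, 257, 295 and 234, and a level of 9.71 ± 0.413 TPM (SD, n = 3). PCDHA4 had 110, 126 and 92 counts and 3.96 ± 0.0399 TPM. In both genes the annotation holds 1 transcript that reads on past the variable exon, with an exon of 12358 bases in PCDHA10 (chr5:140855883-140868240) and of 10557 bases in PCDHA4 (chr5:140807037-140817593). Counts of a gene do not say where on such an exon the reads lay, so that the counts of these genes may come from spliced mRNA of the variable exon or from the long exon. With both left out of the sums, a choice made after seeing the data, the alpha cluster summed to 61.5 TPM. Own exons are 10355 bases long in PCDHA10 and 10557 in PCDHA4, of which 2538 and 2427 are coding. Over a shorter length the levels of PCDHA10 and PCDHA4 would be higher, so their rank and class depend on the length. On own-exon length, no member of the alpha cluster was in the high class.

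The beta cluster was led by PCDHB2 and PCDHB5. PCDHB2 (ENSG00000112852, chr5:141094606-141098703) had 368, 423 and 283 counts and levels of 34.5, 34.1 and 31.1 TPM in replicates 1, 2 and 3 (33.2 ± 1.85 TPM, SD, n = 3). It was the highest of all 53 members in every replicate and the only one in the high class. PCDHB5 (ENSG00000113209, chr5:141135206-141138615) had 229, 276 and 175 counts and 25.8, 26.7 and 23.1 TPM (25.2 ± 1.88). The ranges of both did not overlap, and PCDHB2 was 1.28 to 1.35 times as high as PCDHB5 in each replicate. PCDHB15, the last of the cluster, followed with 74, 116 and 99 counts and levels of 7.91, 10.7 and 12.4 TPM (10.3 ± 2.27 TPM). Replicate 1 was the lowest here and lay just under the median of protein-coding genes. Together PCDHB2, PCDHB5 and PCDHB15 took 69.8%, 70.0% and 66.9% of the beta counts.

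PCDHB16 stands between PCDHB8 and PCDHB9 on the chromosome, out of the order of its number, and had 96, 91 and 74 counts and 9.15 ± 0.932 TPM (SD, n = 3). The other 12 beta members lay between 0.154 and 3.90 TPM. PCDHB1, the first of the cluster, had 12, 30 and 9 counts (0.777 ± 0.406 TPM), with replicate 2 above the other replicates. PCDHB8 was the lowest of all members with 1 count in each replicate, which is under the limit of detection. Of the 50-base stretches of PCDHB8's own exons, 45.3% also occur elsewhere in the locus, more than in any other member, and how reads with several places were counted is not given in the sources used here. PCDHB6 and PCDHB7, next to PCDHB8, had 5 and 11 counts over the 3 replicates, so that 3 neighbouring genes were at or under the limit of detection. In these 14.8% and 9.67% of such stretches occur elsewhere, against 20.5% in PCDHB2, the highest member, and 35.3% in PCDHB10, at 2.39 TPM. In PCDHA6 and PCDHA7, also under the limit, it was 25.4% and 25.9%.

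In the gamma cluster, the 12 genes of type A and the 7 of type B are interspersed along the chromosome and the 3 C-type genes come last. PCDHGB7 (ENSG00000254122, chr5:141417645-141512975) had 147, 183 and 146 counts and levels of 20.3, 21.7 and 23.6 TPM in replicates 1, 2 and 3 (21.9 ± 1.68 TPM, SD, n = 3). PCDHGA10 (ENSG00000253846, chr5:141412987-141512975), just before it, had 157, 204 and 170 counts and 13.5, 15.1 and 17.2 TPM (15.3 ± 1.83). The ranges of both did not overlap, although PCDHGA10 had the more counts, since its own exons are longer (4462 against 2785 bases). Their order turned with other lengths, at 9.601 TPM for PCDHGB7 against 10.68 TPM for PCDHGA10 with the longest transcript and 25.13 against 26.71 TPM with own coding length. The promoter window of PCDHGB7 was the one with the fewest letters in common with its cluster, but it is set on a CGCT at another place. With PCDHGB6, the gene before them (162, 137 and 121 counts, 11.7 ± 1.85 TPM), these 3 neighbours took 42.3% of the gamma counts. PCDHGB4 had 13.8 ± 1.75 TPM, and the other type B genes lay between 1.57 and 4.67 TPM. PCDHGA12, the last gene before the C-type, had 6, 7 and 5 counts (0.843 ± 0.0121 TPM), and PCDHGB7 was 23.9 to 28.5 times as high. With so few counts, this small SD and narrow range of ratios understate the counting error. The 11 type A genes other than PCDHGA10 lay between 0.722 and 4.02 TPM. PCDHGA1, the first of the cluster, had 13, 8 and 6 counts (0.835 ± 0.325 TPM), and PCDHGA3, the lowest, had 3, 6 and 6 (0.722 ± 0.288 TPM), with overlapping ranges.

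Type B genes were higher than type A genes in level. The median member had 4.67 TPM for type B (7 genes) and 1.11 TPM for type A (12 genes), and in replicates 1, 2 and 3 these medians were 4.74, 4.58 and 4.69 TPM against 1.19, 0.972 and 1.33 TPM. Each of the 7 type B genes follows a type A gene on the chromosome. In all 7 pairs the type B gene had the higher mean level, by 1.37 to 16.7 times, and in 5 the ranges over replicates did not overlap. The pairs with overlapping ranges were PCDHGB3 with PCDHGA5 and PCDHGB5 with PCDHGA8. By counts with no length, the type B gene was the higher in 5 pairs. Among lengths tried after seeing the data for these pairs, it was the higher in 7 with the union of all exons, in 6 with the longest transcript, where PCDHGB7 was not, and in 5 with own coding length, where PCDHGB5 and PCDHGB7 were not. The widest ratio was that of PCDHGB4 to PCDHGA7, with 262 against 21 counts over the 3 replicates. Other genes share 4443 of the 6902 exon bases of PCDHGB4, which leaves 2459, while 2177 are shared in PCDHGA7. With the union of all exons the levels were 4.90 TPM for PCDHGB4 and 0.495 TPM for PCDHGA7.

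C-type members were mostly well above their clusters. PCDHGC3 (ENSG00000240184, chr5:141475947-141512977) had 232, 283 and 181 counts and levels of 27.4, 28.7 and 25.1 TPM in replicates 1, 2 and 3 (27.1 ± 1.86 TPM, SD, n = 3), the highest of the gamma cluster and second to PCDHB2 of all members. Its range did not overlap that of PCDHB2 and overlapped that of PCDHB5. PCDHGC4 (ENSG00000242419, chr5:141484997-141512975) had 95, 89 and 60 counts and 13.1, 10.5 and 9.68 TPM (11.1 ± 1.76). PCDHGC5 (ENSG00000240764, chr5:141489081-141512975) had 12, 10 and 9 counts and 1.62, 1.16 and 1.42 TPM (1.4 ± 0.230). The 3 genes are neighbours, and their ranges did not overlap. PCDHGC3 was 16.9 to 24.8 times as high as PCDHGC5, and PCDHGC4 6.80 to 9.08 times.

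In the alpha cluster, PCDHAC2 (ENSG00000243232, chr5:140966470-141012347) had 139, 170 and 97 counts and levels of 16.2, 17.1 and 13.3 TPM in replicates 1, 2 and 3 (15.5 ± 1.99 TPM, SD, n = 3). PCDHAC1 (ENSG00000248383, chr5:140926299-141012347) had 92, 102 and 88 counts and 8.52, 8.13 and 9.56 TPM (8.74 ± 0.740). PCDHAC2 was 1.39 to 2.099 times as high as PCDHAC1, with ranges that did not overlap. With the union of all exons, PCDHAC1 and PCDHGC4 had 5.16 and 6.23 TPM, and PCDHA10, PCDHA12 and PCDHGB4 had 6.42, 7.19 and 4.90 TPM. Which members pass the median of protein-coding genes may therefore change with the length. On own-exon length, 4 of 5 C-type members were above that median, against 11 of the 48 others. Their share of the cluster's counts was 25.6%, 26.1% and 24.1% in alpha (25.3 ± 1.02%, SD, n = 3; 42.9% without PCDHA4 and PCDHA10) and 30.0%, 30.4% and 25.3% in gamma (28.6 ± 2.82%), and in both it was lowest in replicate 3.

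All 53 members were then ranked by mean level. Of the 52 pairs of neighbours in that order, 49 had overlapping ranges over the replicates. The 3 that did not were PCDHB2 over PCDHGC3, PCDHGB7 over PCDHAC2, and PCDHAC1 over PCDHGB1, and the last of these parts the 15 members above the median of protein-coding genes from the others. Between PCDHAC1, at 8.74 TPM, and PCDHGB1, at 4.67 ± 0.0780 TPM, no member had its mean. Below 1 TPM lay 15 members, and 23 lay from 1 to 5 TPM. Along the chromosome, levels were higher toward the end of the alpha cluster (Spearman's rho across its members 0.62, mean over replicates) and the gamma cluster (0.49), with little such order in the beta cluster (0.12). Without the C-type members rho was 0.48 in alpha. The points share 1 locus and the same libraries.

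The spread of the counts between replicates was set against counting error. The chi-square of the counts per degree of freedom has a mean of 1 under counting error alone. For sets of members, the expected counts came from the set's own total in each replicate, so shifts of a whole set between replicates are left out. It was 0.824 for alpha, 1.52 for beta and 1.14 for gamma as clusters. Over all 53 members as 1 set it was 1.15. For single genes the expected counts came from the library totals, and the median of this chi-square is 0.693 under counting error alone. It was 0.978 over the 45 members with at least 20 counts in all and 1.07 over the 7836 protein-coding genes with totals in the same range. Both medians were above 0.693, and whether the 45 members varied beyond counting error was not tested. Among these members PCDHB15, at 4.86, PCDHB1, at 4.37, and PCDHGB6, at 3.73, varied most. Relative to its depth, replicate 3 was compared with the others. The median log2 ratio of its CPM to the mean of the others was 0.12 over the 45 members, 30 of which were higher and 15 lower, 0.02 over all protein-coding genes with at least 20 counts, and 0.07 over those with totals like the members. After a correction by exon GC content in 20 bins it was 0.14 for members and 0 for all genes. The value for all genes may be set by the correction itself. Over the 18 members with at least 100 counts in all the median log2 ratio was 0.02. What moved these ratios was not tested.

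The 3 libraries held 10390984, 12024802 and 8655155 counts. All 10 markers of pluripotency were in the high class, from 259 TPM for SALL4 to 2576 TPM for LIN28A. Of 12 neuron markers 8 passed the limit of 3 counts, the highest of them GAP43, at 26.2 TPM, and none was in the high class. NEUROG2 had no read. The summed level of this list was 72.8 to 85.9 TPM, mostly on GAP43, STMN2 and MAP2. Of 8 neural progenitor markers 4 passed the limit, with NES highest, at 327 TPM, and their sum was 320 to 348 TPM. All 6 mesendoderm markers passed it, from 1.47 TPM for GATA6 to 22.3 TPM for MIXL1 (sum 33.9 to 52.1 TPM). Of 6 fibroblast markers 4 passed it, with COL1A2 highest of the list, at 25.6 TPM, and DCN, which did not pass, lowest, at 0.0985 TPM (sum 43.1 to 49.1 TPM). Their part in the levels of the members was not tested, and in bulk RNA few cells with much of an mRNA and many cells with little cannot be told apart. Nor can a mixture of cells, each with its own few members, be told from cells that all use the same ones.

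Genes that act on the clusters were in large part strongly expressed. Of the 11 genes of the insulator and cohesin list, all passed the limit of detection and 10 were in the high class. WAPL, which releases cohesin from DNA, was the highest, at 110 ± 7.11 TPM (SD, n = 3), and MAU2, a partner of the cohesin loader, the lowest, at 21.8 ± 2.08 TPM. CTCF had 72.5 ± 3.89 TPM. Of the 11 genes of the silencing list, all passed the limit and 8 were in the high class. DNMT3B, the DNA methyltransferase that sets methylation at these promoters in early development, was highest, at 1200 ± 11.01 TPM. The repressor SMCHD1 had 24.5 ± 1.45 TPM, in the medium class. Of 4 genes of demethylation, TET1 was highest, at 126 ± 5.09 TPM, and TET2 lowest, at 2.64 ± 0.255 TPM. Of the 11 insulator, 11 silencing and 4 demethylation genes, TET2 was the only one in the low class. CTCF and SMCHD1 were named besides the highest and the lowest after the values were seen.

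Protocadherin proteins are cut by the protease ADAM10 and by gamma-secretase, and their cytoplasmic ends bind the kinases FAK (PTK2) and PYK2 (PTK2B) and the WAVE complex. All 15 genes of this list passed the limit, with 9 in the high class, 5 medium and 1 low. APH1A, a subunit of gamma-secretase, was the highest, at 126 ± 1.52 TPM (SD, n = 3), and PTK2B the lowest, at 1.81 ± 0.379 TPM.

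The nonclustered delta protocadherins, which have genes of their own on several chromosomes, also ranged widely. Of 11 genes 9 passed the limit of detection, 1 was high, 5 were medium and 5 low, with a median of 4.07 TPM. PCDH1 had 170 ± 4.29 TPM (SD, n = 3), more than any clustered member, and PCDH20 had 0.247 ± 0.428 TPM, from own exons of 446 of its 5105 exon bases. Of the 11 giant and atypical cadherins 9 passed, with a median of 14.4 TPM. The highest was FAT1, at 133 ± 7.24 TPM, and the lowest PCDH15, at 0.0662 ± 0.0357 TPM.

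Genes next to or between the clusters were mostly higher than the members. Of 10 neighbours, 6 were in the high class, 3 medium and 1 low, with a median of 43.2 TPM. ZMAT2, before the alpha cluster, had 185 ± 20.9 TPM (SD, n = 3). TAF7, a gene of the general transcription machinery that lies between the beta and gamma clusters on the minus strand, had 172 ± 7.81 TPM. SLC25A2, which also lies there, was the lowest, at 0.246 ± 0.235 TPM, from 1, 2 and 0 counts.

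**Figure D3:**
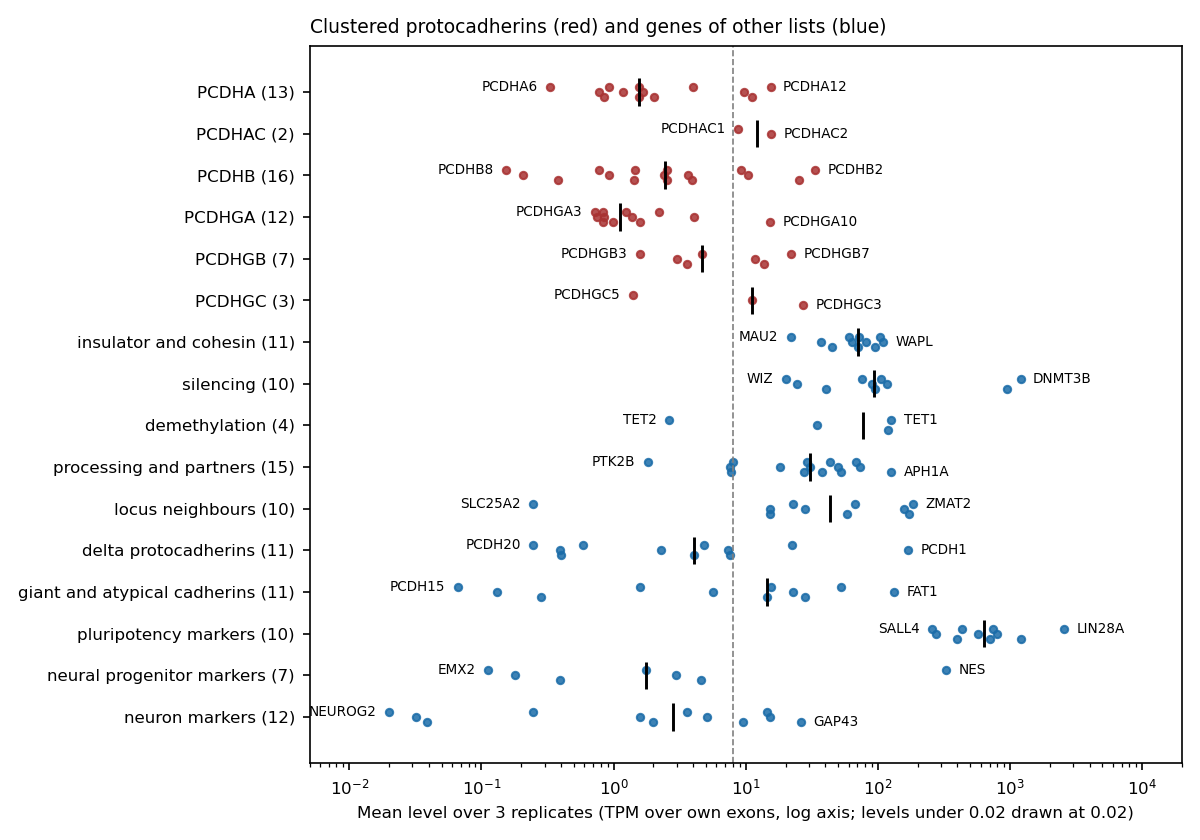
Mean level over 3 replicates (TPM over own exons, log axis) of the clustered protocadherins by type (red) and of genes on other lists (blue), with the number of genes drawn in parentheses, the highest and the lowest drawn named, and a black bar at each median. The dashed line is the median of protein-coding genes at 8.00 TPM; insulator, silencing and pluripotency genes lie to its right and most members to its left.

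Several noncoding genes are annotated on the minus strand over members, and whether the counting used the strand of reads is not given in the sources used here. PCDHB1-AS1 had 103, 140 and 86 counts, and 57.5% of its exon length lies over PCDHB2. It had 105 reads per kb over all its exons and the 3 replicates, and PCDHB2 had 262. Of the exon length of PCDHB2, 43.9% is covered by genes of the other strand, and of PCDHA1 48.6%. ENSG00000278915, which lies wholly over PCDHA12, had 30, 51 and 18 counts, or 1.41 times the reads per kb of PCDHA12. Over PCDHB16, ENSG00000278936 had 35, 24 and 17 counts, or 1.12 times its reads per kb. Without strand, reads of a member and of its antisense partner cannot be told apart, so the levels of these members are uncertain. PCDHA14 and ENSG00000278946 both lie wholly over PCDHA10. PCDHA14, on the same strand, had 0, 0 and 0 counts, and ENSG00000278946, on the other strand, had 14, 15 and 9. Whether reads were counted by strand was not tested. Over gamma members such overlap with the other strand concerns 1 gene, PCDHGB1, of whose exon length 11.6% is covered.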

How the data were processed

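Each of the 3 libraries came from total RNA of H9 cells. The authors trimmed reads with Trim Galore (0.4.4) and aligned them to GRCh38 with TopHat2 (2.1.1), and deposited raw counts of reads per gene. For the step from alignments to counts, the tool, the annotation and any use of strand were not given in the sources used here. Their Cufflinks TPM values were not used. Of 58051 identifiers, 56948 matched GENCODE release 44, on the same build.

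Levels were computed here from the counts, divided by own-exon length and scaled in each replicate by the total of counts over the union of exons, as for TPM. Classes used protein-coding genes with at least 200 own-exon bases and the threshold of 0.01 TPM. With 1 condition no test was made, and errors are SDs over 3 replicates. Intervals of counts and the limit of 3 counts cover counting error only. The clusters and lists were chosen with earlier results of these data known. The rule for named genes took in each cluster the 3 highest members, the lowest with reads, the first, the last, C-type members and any with no read, and of each list the highest and the lowest, of which 2 genes are not reported here. Other genes in the text were picked with their values in view. Promoter sequences are from RefSeq, constant exons from hg38. Alternatives were other gene lengths, CPM, rescaling by TMM (edgeR) or DESeq2 factors, mitochondrial genes left out, filters, thinned counts, other thresholds, a GC correction and leaving out each replicate. Python 3.11.15, numpy 2.4.6, pandas 2.3.3 and scipy 1.17.1 were used. The level step (own-exon length and scaling) was tested on simulated counts.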

Additional observations from a re-analysis of the deposited data

How the results depend on the processing

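The number of detected members was 30 with at least 10 counts in every replicate and 47 to 49 with a replicate left out. Summed levels moved most with the length used, and gamma was above alpha under each. With the union of all exons they were 41.78 TPM for alpha and 74.91 TPM for gamma, so that beta, without shared exons, was highest. With the longest transcript they were 36.25, 72.76 and 67.39 TPM for alpha, beta and gamma, with own coding length (chosen after seeing the data) 138.8, 160.6 and 173.1 TPM, as CPM 87.42, 95.21 and 109.1, and without mitochondrial genes, which shrinks the total, 78.36, 102.4 and 135.9 TPM. Without PCDHA4 and PCDHA10, alpha summed to 61.54 TPM, its top 3 members held 62.94% and its C-type members 42.92% of the counts. Per own-exon length, the C-type share of alpha was 32.23%. Spearman's correlation of level with position was 0.5189 (counts), 0.5202 (coding length) and 0.4762 (no C-type members) in alpha, 0.1256 and 0.1284 (counts and coding length) in beta and 0.4311 (coding length) in gamma. A threshold of 1 TPM made 15 members nonexpressed, 11 medium and 0 high, and CPM made 0 high. The log2 ratio of replicate 3 was 0.01911 over members with at least 100 counts and 0.05725 to 0.1432 with replicate 1 or 2 left out. With each replicate left out, the sums lay between 74.88 and 75.83 (alpha), 97.41 and 99.15 (beta) and 128.7 and 132.6 TPM (gamma). Rescaling by TMM or DESeq2 factors moved none of the values it was run for by more than the SD. Where no construction is named, the cause was not tested. No paired analysis was possible because all replicates belong to 1 condition. With the counts thinned to 50%, 36 members were detected, so depth limits this number.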

Other observations

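Some pseudogenes of the locus lie apart from the exons of members. Of these, PCDHB17P had 0, 3 and 0 counts in replicates 1, 2 and 3, PCDHB18P 2, 2 and 4 and PCDHB19P 4, 2 and 4. In the gamma cluster, PCDHGB8P had 12, 16 and 10 counts and PCDHGB9P 11, 2 and 3. PCDHGB8P thus had more than 3 counts in every replicate, as 47 of 53 members did, at 13.2 reads per kb over the 3 replicates.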
